A study of Drosophila melanogaster with 12 samples.

Results

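The sites described here are the peaks of the Polycomb Group (PcG) protein PSC that lie near the centromeres of 3 autosomal arms in Drosophila S2 cells. They were taken from the peak list of PSC control replicate 1 by position alone: the midpoint of a peak had to lie at or beyond 20 Mbp on 2L, at or beyond 20 Mbp on 3L, or at or below 4 Mbp on 3R, in coordinates of the dm3 build. These rules selected 395 of 4830 peaks, of which 94 were on 2L, 125 on 3L and 176 on 3R. The other 2674 peaks of the same 3 arms served as the comparison and are called the rest of the arms. The window on 3R includes the Antennapedia complex (ANT-C), a cluster of Hox genes that are well known PcG targets, and results on 3R are given with and without the 28 sites between 2.5 and 3.0 Mbp, called the ANT-C window, which was not set from an annotation and may hold sites outside the gene cluster.

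PcG proteins keep developmental genes silent, and PSC and PH are both subunits of the Polycomb Repressive Complex 1, which compacts chromatin and blocks remodelling. Toward the centromere each arm of the fly genome passes from gene-rich euchromatin into heterochromatin, which is dense in repeats, is marked by methylation of histone H3 on lysine 9 and is silenced by a machinery other than the PcG. The assembled arms end inside this transition, so that sites near the arm ends lie close to heterochromatin, but the centromeres themselves are not in the sequence.

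The study asked where PcG proteins stay on chromatin through mitosis, and used ChIP–SEQ peaks from 6 samples for this. PSC was precipitated with a rabbit antibody from control and mitotic S2 cells, with 2 biological replicates each. For ChIP from sorted cells the paper describes a biotinylated PSC antibody caught on streptavidin beads, to keep the sorting antibodies out. PH was also pulled down on streptavidin, but without a ChIP antibody, from 1 control and 1 mitotic sample. These came from a stable S2 line that carries biotin-tagged PH and the biotin ligase BirA under a metallothionein promoter. Mitotic cells came from cultures held for 15 h in colchicine (350 ng/ml or 880 nM) and were sorted by FACS for H3S10p, a histone mark of condensed chromosomes. Control cells were asynchronous, received no colchicine and were sorted with an antibody to H3, so that cell cycle state, drug and sorting antibody cannot be told apart. S2 is an embryonic cell line with no tissue of its own, and the PH samples come from 1 such derived line. A site that overlapped a mitotic peak by at least 1 bp is called retained in that list and a site that overlapped none is called lost, which means below the threshold of the mitotic lists and not shown to be unbound. The lists carry no read counts, so depth is unknown, and all intervals are 95% intervals for the counting error of a single list, which leave out the variation between cultures.

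In control cells the sites near the centromeres had scores like those of the others, but were fewer per Mbp on 2L and 3L. Their median score was 740 (662 to 852), where the score is the MACS value of −10 times the log10 of the peak's p-value, against 701 (673 to 728) over the rest of the arms. The middle 50% of sites spanned 347 to 1270 near the centromeres and 373 to 1292 elsewhere, so that the bulk of both distributions coincided. By arm the median was 775 on 2L, 781 on 3L and 682 on 3R, against 663, 706 and 715 over the rest of each arm, and the interval of each window overlapped that of its arm. Median peak length was 1766 bp (1687 to 1848) near the centromeres and 1718 bp (1698 to 1749) elsewhere.

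The density of sites differed between the arms. The windows near the centromeres held 34.4 sites per Mbp (31.1 to 37.9) and the rest of the arms 41.9 (40.3 to 43.5). On 2L the values were 31.6 and 40.4 per Mbp, and on 3L they were 27.6 and 42.8. On 3R the window held 44.1 per Mbp (42.4 without the ANT-C window) against 42.4. PSC control replicate 2 gave the same order, with 21.9, 18.5 and 33.9 peaks per Mbp in the windows of 2L, 3L and 3R against 30, 32.0 and 32.3 outside them. The PH control list did so as well, with 31.3, 27.1 and 40.9 against 37.6, 41.7 and 40.3. Without the ANT-C window PSC control replicate 2 had 31.3 per Mbp on 3R and the PH control had 39.0, each just below its arm, with overlapping intervals. The lower density on 2L and 3L was thus found in each of the 3 control lists, with intervals that overlapped those of the arm on 2L and not on 3L, and on 3R no such difference was seen with or without the ANT-C window. Peak numbers in the list show that 395 of 484 peaks called in the windows of PSC control replicate 1 (81.6%, 77.9 to 85.0) were kept by the authors' filters, against 79.8% (78.4 to 81.1) over the rest of the arms, so the filters removed a like share of both.

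**Figure D1:**
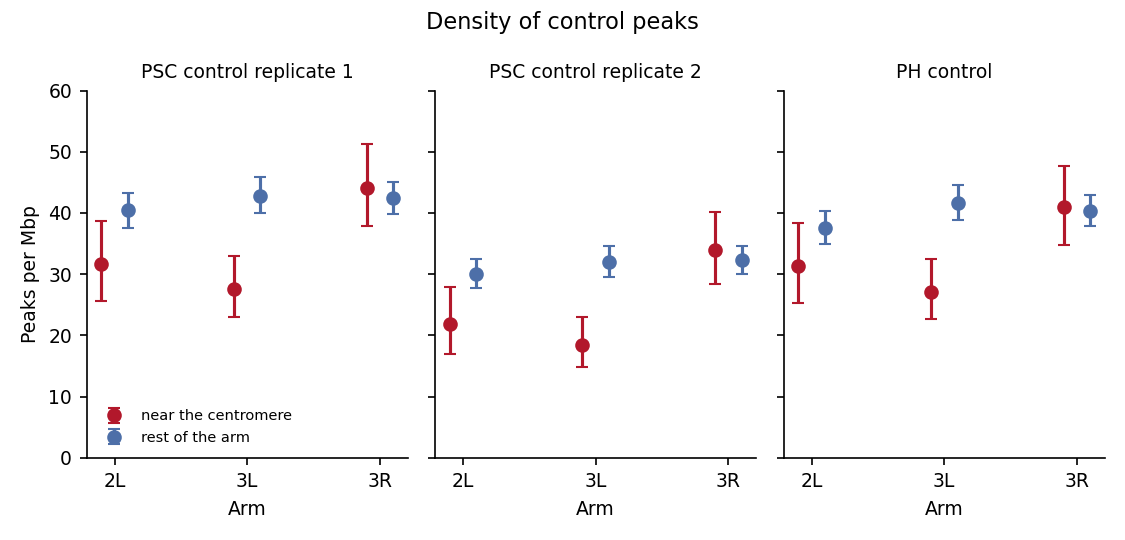
Peaks per Mbp (y axis, linear from 0) on arms 2L, 3L and 3R (x axis) in the 3 control lists, near the centromere (red) and over the rest of the arm (blue); bars are exact 95% Poisson intervals. On 2L and 3L the red points lie below the blue ones in each list, and on 3R, with the ANT-C window included, they lie just above them.

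On 2L and 3L the lower density belonged to the very ends of the arms. Beyond 22 Mbp, a division made after the values were seen, 2L held 18 sites at 18.5 per Mbp, against 76 sites at 38.0 per Mbp between 20 and 22 Mbp. On 3L the corresponding values were 33 sites at 13.0 per Mbp and 92 sites at 46.0 per Mbp. The widths count every base, also repeats to which no read aligns uniquely. How much of these ends could hold a peak is thus unknown, and its part in the densities and gaps was not tested. Sparse did not mean weak here. The 51 sites beyond 22 Mbp had a median score of 989, against 686 for the 168 sites between 20 and 22 Mbp, and 17 of the 51 ranked in the top 2 deciles of all 4830 control peaks. They were also long, with medians of 2360 bp on 2L and 2279 bp on 3L, against 1813 and 1628 bp farther out. The longest of all 395 sites was the last one on 2L, chr2L:22958829-22971268, which ran over 12440 bp with a score of 632. The next longest were chr3L:22935201-22943689 with 8489 bp and chr2L:22425033-22432895 with 7863 bp, and both also lay beyond 22 Mbp.

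The distances between neighbouring sites were less distinct than the densities. The median distance between midpoints was 12.4 kb (10.3 to 14.2) near the centromeres and 10.2 kb (9.66 to 10.8) elsewhere, with overlapping intervals. By window it was 14.1 kb on 2L (9.74 to 19.8), 13.5 kb on 3L (10.4 to 18.7) and 10.2 kb on 3R (8.07 to 14.0), so that each interval overlapped that of the sites elsewhere. On 3L the widest gap was 508 kb, between a site that ends at 24023049 and the last site of the arm, chr3L:24528462-24531302. That last site had a score of 2903, was the strongest lost site of the 3L window, and was found at 144 in PSC control replicate 2 and at 3100 in the PH control list. On 2L the widest gap was 357 kb and on 3R it was 190 kb. Close spacing was not lost altogether, since 22.7% of the distances near the centromeres were under 5 kb, against 24.4% elsewhere.

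PH was found at nearly all of these sites. PH control peaks overlapped 364 of 395 sites, or 92.2% (89.0 to 94.6), against 2429 of 2674, or 90.8% (89.7 to 91.9), over the rest of the arms and 91.2% over the whole list. Near the centromeres PSC and PH ranked their shared sites alike, with a Spearman rho of 0.87 between scores over 364 sites, which was also 0.87 over the 2429 sites elsewhere. These sites share their libraries, so the value is a description. PSC control replicate 2 overlapped 273 of 395 sites, or 69.1% (64.3 to 73.6), against 69.4% over the rest of the arms and 62.9% over the whole list. On 3L the share in replicate 2 was 63.2% (54.1 to 71.6) in the window and 68.6% over the rest of the arm. Among the strongest 10% of sites it was 34 of 38 (89.5%, 75.2 to 97.1) near the centromeres and 293 of 301 (97.3%, 94.8 to 98.8) elsewhere.

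The 31 sites without PH were weak ones. Their scores ran from 162 to 393 with a median of 235, against a median of 817 for sites with PH, and 7 of the 31 overlapped a peak of PSC control replicate 2. The strongest was chr3R:2914687-2916776, in the ANT-C window, with a score of 393. It was followed by chr3R:1264052-1265376 with 348 and chr3R:60291-61778 with 327. None of these 3 was in a mitotic list, which their scores alone make likely. In the lower 5 deciles of control scores, PSC mitotic replicate 1 overlapped 19 of 1274 sites (1.49%) over the rest of the arms.

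In mitotic cells a smaller share of the sites near the centromeres than of the others was found again. Peaks of a list are not replicates, so this share is described with its counting interval. Only the comparison between samples further on is a test, and its windows were chosen with earlier results of these data known. PSC mitotic replicate 1 overlapped 27 of the 395 sites, or 6.84% (4.55 to 9.79), against 346 of 2674, or 12.9% (11.7 to 14.3), over the rest of the arms, and 11.6% over all 4830 control peaks. The intervals do not overlap. Each window was below its own arm, with 5 of 94 sites (5.32%) against 13.3% on 2L and 7 of 125 (5.60%) against 12.5% on 3L. On 3R it was 15 of 176 (8.52%, 4.85 to 13.7) against 13.0%, where the interval reached the value of the arm. On each of the 3 arms the interval of the window overlapped that of the rest of the arm. The difference was thus not resolved on any single arm. Without the ANT-C window the retained share on 3R was 10 of 148, or 6.76%, and over the 3 windows it was 22 of 367, or 5.99% (3.79 to 8.94). In the ANT-C window 5 of 28 sites (17.9%) were retained.

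The other mitotic lists were short, and their shares near the centromeres were also the lower ones over the 3 arms together. The PH mitotic list overlapped 7 of 395 sites, or 1.77% (0.715 to 3.62), against 88 of 2674, or 3.29% (2.65 to 4.04), over the rest of the arms and 3.02% over all control peaks. PSC mitotic replicate 2 overlapped 2 sites, or 0.506% (0.0614 to 1.82), against 1.23% elsewhere and 1.10% overall. In both lists the intervals of the sites near the centromeres and elsewhere overlap, so that a difference was not resolved. Both sites of replicate 2 were on 2L, where its share was 2 of 94 (2.13%, 0.259 to 7.48) in the window and 11 of 807 (1.36%) over the rest of the arm, the opposite order. It held 0 of 125 sites on 3L, which allows a share of up to 2.40%, and 0 of 176 on 3R, which allows up to 1.70%.

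Each of the retained sites was in PSC mitotic replicate 1, so that 27 of 395 sites were in any mitotic list, against 11.8% of all control peaks. At least 2 of the 3 mitotic lists held 7 of the 395 sites, against 93 of 2674 (3.48%) over the rest of the arms and 3.08% overall. All 3 lists held 2 sites, against 0.828% of all control peaks. The lists are separate libraries, but PSC and PH occupy the same sites, and PSC mitotic replicate 1 was the longest of the 3 mitotic lists.

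The samples themselves can be compared by the share of each list that falls near the centromeres. Of the peaks on the 3 arms, 395 of 3069 (12.9%) lay near the centromeres in PSC control replicate 1, 284 of 2294 (12.4%) in PSC control replicate 2 and 379 of 2923 (13.0%) in the PH control. The share was 29 of 382 (7.59%) in PSC mitotic replicate 1, 2 of 35 (5.71%) in PSC mitotic replicate 2 and 7 of 98 (7.14%) in the PH mitotic list. The share of each control list was above that of each mitotic list. The intervals of PSC mitotic replicate 2 (0.700 to 19.2) and the PH mitotic list (2.92 to 14.2) still reached the control shares. The mean was 12.7% ± 0.314 (SD, n = 3) in control lists and 6.82% ± 0.980 (SD, n = 3) in mitotic lists. Each n holds 2 PSC lists and 1 PH list, so the SD is not a spread between replicates of 1 protein. The difference of −5.92 percentage points gave p = 0.1 in a two-sided exact permutation test over the 6 lists. That is the smallest p that 3 lists against 3 can give and does not pass a threshold of 0.05. Since the windows were chosen with earlier results of these data known, the test is not independent of that choice.

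**Figure D2:**
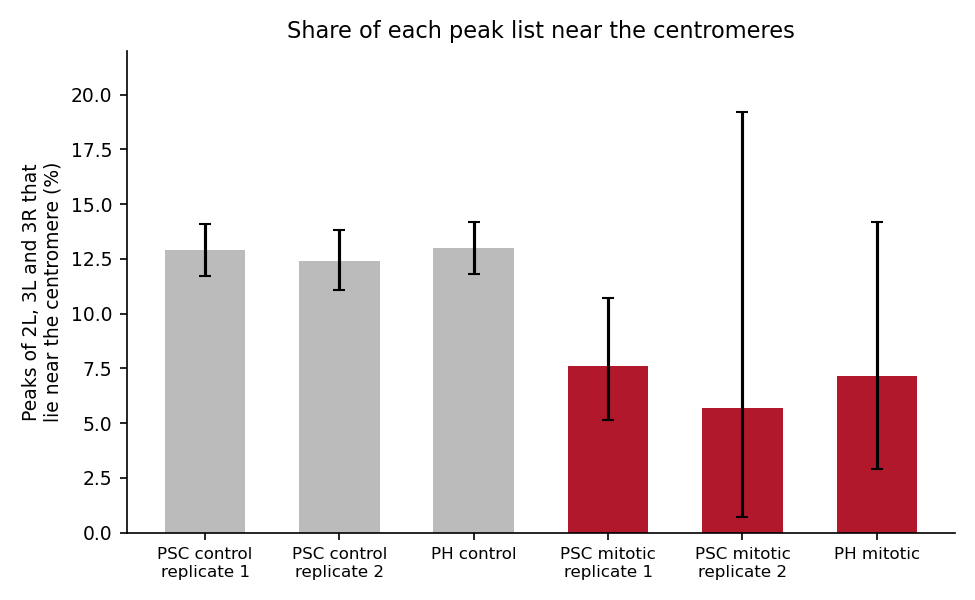
Percent of the peaks on 2L, 3L and 3R that lie near the centromeres (y axis, from 0) in each of the 6 lists (x axis), control in grey and mitotic in red; bars show exact 95% binomial intervals. The control lists lie between 12.4% and 13.0% and the mitotic lists between 5.71% and 7.59%.

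The mitotic lists are shorter and hold mainly strong sites, so a control list cut to its strongest peaks is the nearer comparison, and this was added after the data were seen. Of the 382 highest peaks of PSC control replicate 1 on the 3 arms, 41 (10.7%) lay near the centromeres, against the 29 of 382 in PSC mitotic replicate 1. The 98 highest PH control peaks included 16 (16.3%), against 7 of 98 in the PH mitotic list. Several PH control peaks share a score of 3100.00, so which of them entered the 98 may rest on their order in the list. The 35 highest of PSC control replicate 2 included 4 (11.4%), against 2 of 35. The intervals overlapped in each pair. For PSC replicate 1 they were 7.81 to 14.3 in control and 5.14 to 10.7 in mitotic cells. For PH they were 9.63 to 25.2 and 2.92 to 14.2, and for PSC replicate 2 they were 3.20 to 26.7 and 0.700 to 19.2. The difference between the means was then −6.01 percentage points, again with p = 0.1 in the exact permutation test.

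By control score, the retained share was the smaller one near the centromeres in each class but the sixth decile. In the top decile of control scores, 9 of 38 sites near the centromeres (23.7%, 11.4 to 40.2) were retained in PSC mitotic replicate 1, against 147 of 301 (48.8%, 43.1 to 54.6) over the rest of the arms. In the next decile it was 9 of 45 (20%) against 91 of 280 (32.5%), and in the eighth 6 of 49 (12.2%) against 54 of 272 (19.9%). In the seventh decile 1 of 49 (2.04%) was retained, against 26 of 269 (9.67%). In the lower 5 deciles 0 of 178 sites near the centromeres were retained, which allows a share of up to 1.69%, against 19 of 1274 (1.49%). The sixth decile had 2 of 36 (5.56%) against 9 of 278 (3.24%).

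**Figure D3:**
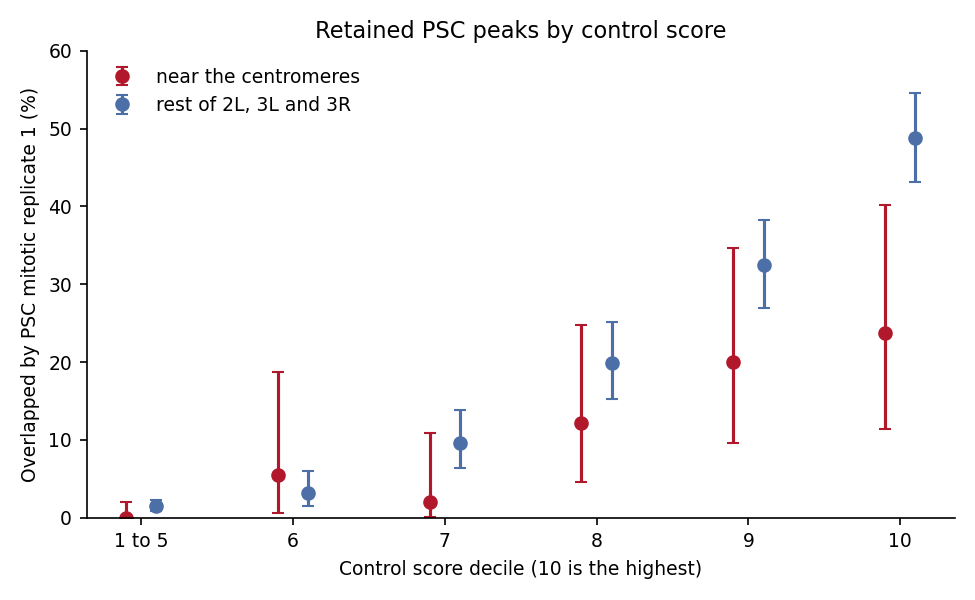
Percent of control sites overlapped by PSC mitotic replicate 1 (y axis, from 0) by decile of control score (x axis, 10 is the highest, deciles 1 to 5 pooled), near the centromeres (red) and over the rest of 2L, 3L and 3R (blue); bars are exact 95% binomial intervals. In the top decile the red interval ends at 40.2% and the blue one starts at 43.1%, and in the other classes the intervals overlap.

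The sets can also be compared at equal scores. The top 2 deciles held 21% of the sites near the centromeres and 21.7% of the others, and retention within them was 18 of 83 (21.7%, 13.4 to 32.1) against 238 of 581 (41.0%, 36.9 to 45.1). If each decile near the centromeres had been retained at the rate found over the rest of the arms, 51.3 of the 395 sites would have been in PSC mitotic replicate 1, where 27 were. The same figure was 12.4 against the 7 found in the PH mitotic list, and 4.75 against the 2 found in PSC mitotic replicate 2. For the control lists it was 358 against 364 for PH and 275 against 273 for PSC replicate 2. By arm it gave 12.8 against 5 on 2L, 16.0 against 7 on 3L and 22.5 against 15 on 3R.

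The highest scores were not evenly shared. Many peaks carry a score of exactly 3100.00 or a little more, and these numbered 8 near the centromeres and 117 elsewhere. Of them, 2 of 8 near the centromeres and 72 of 117 (61.5%) elsewhere were retained. With them set aside, 7 of 30 sites of the top decile (23.3%, 9.93 to 42.3) were retained near the centromeres and 75 of 184 (40.8%, 33.6 to 48.2) elsewhere, so that the order held but the intervals overlapped. With 20 score classes below 3100 and the higher scores as a class of their own, the rates of the other sites gave 49.4 retained sites near the centromeres in place of 51.3.

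The same shortfall was seen when sites were ranked by the other control lists. Of 284 peaks of PSC control replicate 2 near the centromeres, 26 (9.15%, 6.07 to 13.1) overlapped PSC mitotic replicate 1, against 342 of 2010 (17.0%, 15.4 to 18.7) elsewhere, and the score deciles of that list would have given 44.8. Of 379 PH control peaks near the centromeres, 27 (7.12%, 4.75 to 10.2) did, against 344 of 2544 (13.5%, 12.2 to 14.9), where the deciles would have given 55.6. PSC control replicate 2 also differed between the sets at strong sites, in the share found in the top decile given above and in score. Among sites in the top 3 deciles of PSC control replicate 1, the median score in PSC control replicate 2 was 139 near the centromeres and 162 elsewhere, while in the PH control list it was 1911 and 1850. The part of these lower values in the difference in retention was not tested.

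The retained share was lowest at the end of the arm. Within 1 Mbp of the centromere-side end, taken as the outermost peak edge in any list, 2 of 70 sites (2.86%, 0.348 to 9.94) were in PSC mitotic replicate 1. The share was 7 of 103 (6.80%) from 1 to 2 Mbp, 9 of 116 (7.76%) from 2 to 3 Mbp and 12 of 126 (9.52%) from 3 to 4 Mbp. It was 11.5% of 279 sites from 4 to 6 Mbp, 14.0% of 472 from 6 to 10 Mbp and 12.9% of 1903 farther out. The steps between neighbouring bins lay within their intervals, and without the ANT-C window the bin from 2 to 3 Mbp was 4 of 88 (4.55%), which breaks the order. Over the same bins PH control peaks covered 91.4%, 97.1%, 88.8% and 92.9% of sites in the first 4 Mbp, in no steady order.

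**Figure D4:**
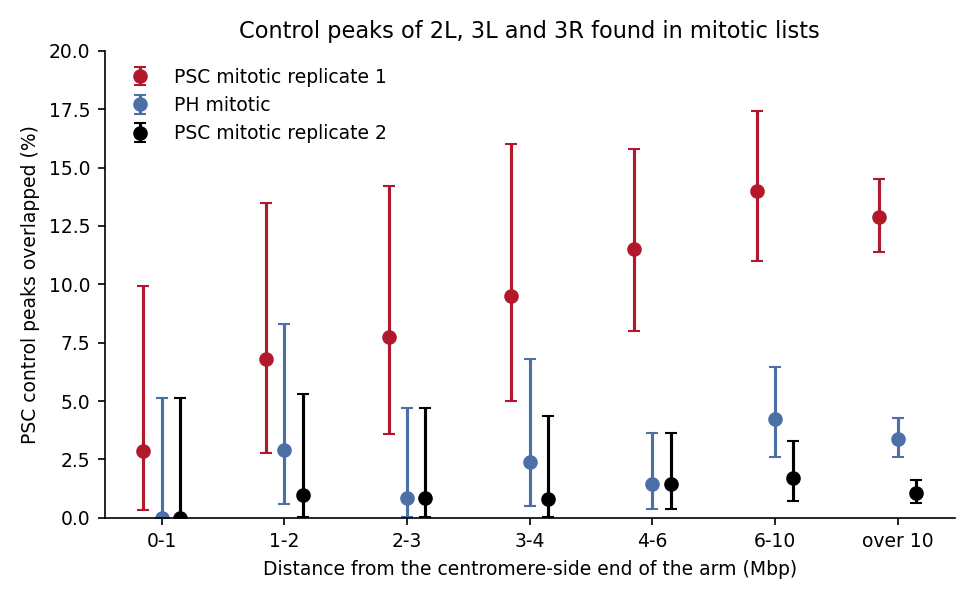
Percent of control sites on 2L, 3L and 3R overlapped by each mitotic list (y axis, from 0) by distance from the centromere-side end of the arm in Mbp (x axis); bars are exact 95% binomial intervals. For PSC mitotic replicate 1 (red) the values run from 2.86% in the first Mbp to 14.0% between 6 and 10 Mbp.

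At the ends of 2L and 3L no site was retained. Of the 51 sites beyond 22 Mbp, 0 were in any mitotic list, which allows a share of up to 5.88%, while 12 of the 168 sites between 20 and 22 Mbp were. Retention at the decile rates of the rest of the arms would have given 9.54 sites of the 51 and 19.3 of the 168. The boundary, however, lies beyond the innermost retained site of both arms, so it fixed the 0, and these values measure no shortfall. In control cells PH peaks overlapped 49 of these 51 sites, and 35 of 51 were in PSC control replicate 2, where the deciles of the other sites would have given 39.9. The 5 strongest of them on 2L were chr2L:22129192-22135373 (2533), chr2L:22167965-22170254 (2495), chr2L:22246246-22250695 (3100), chr2L:22425033-22432895 (3100) and chr2L:22469431-22473042 (3100). They were singled out after their values were seen. PH was found at each of them, at 3153, 1842, 3100, 3100 and 3100. The boundary of 22 Mbp was itself set with the values known, so the count of 0 is a description. No such stretch was set apart on 3R, where a site 0.618 Mbp from the end was retained.

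The site nearest to the end that was retained differed by arm. On 2L it was chr2L:21396527-21398093, 1.57 Mbp from the end, with 27 lost sites beyond it, 7 of them in the top decile of control scores. On 3L it was chr3L:21645367-21646837, 2.89 Mbp from the end, with 42 lost sites beyond it, 4 of them in the top decile. On 3R it was chr3R:627370-632823, only 0.618 Mbp from the end, with 36 lost sites beyond it and 2 of these in the top decile. These stretches were bounded by the innermost retained site, so they hold no retained site by definition. Over all 4830 control peaks 11.8% were in any mitotic list. The plot of score against distance shows the stretches as grey points alone.

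**Figure D5:**
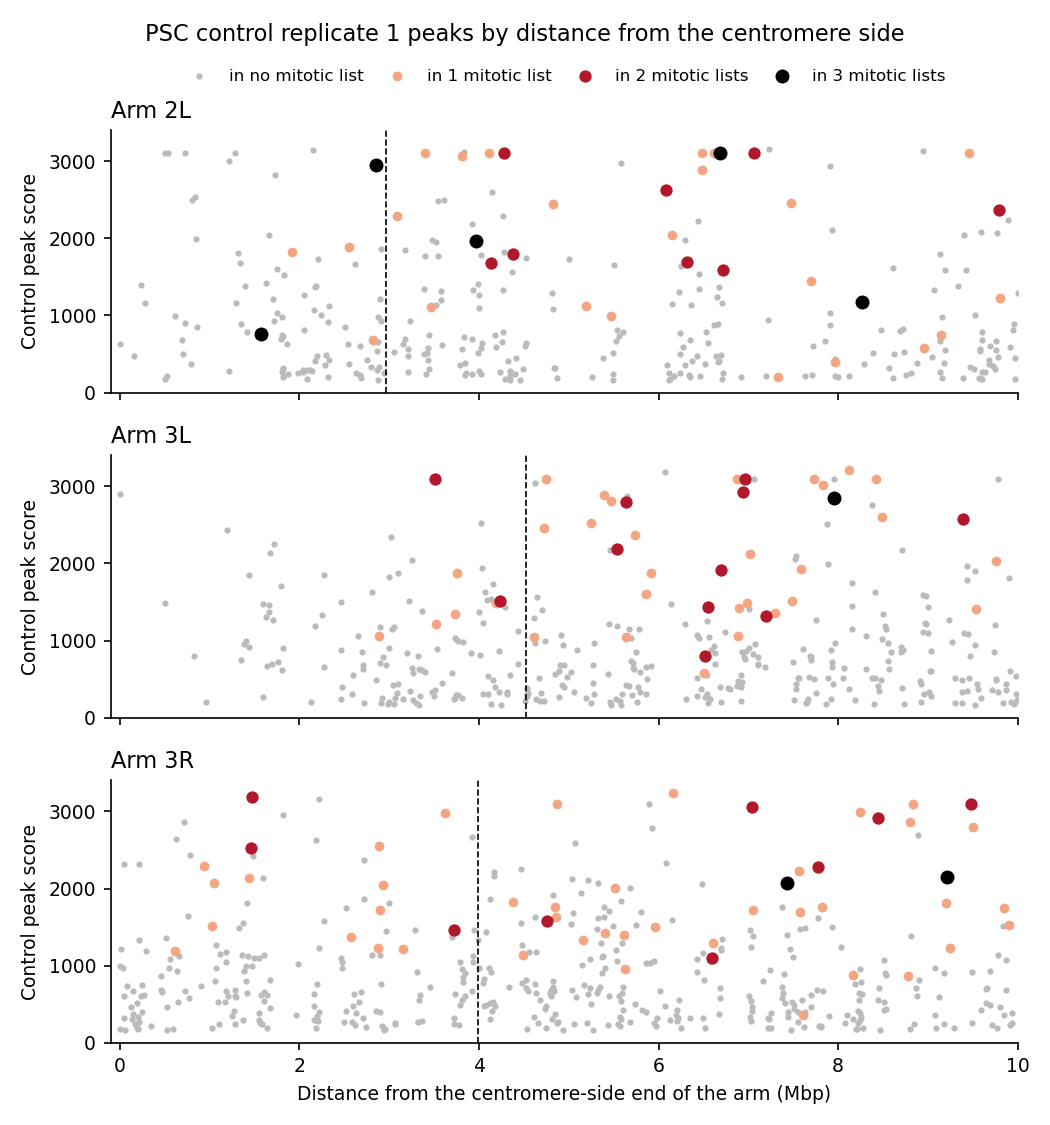
Control score of PSC control replicate 1 sites (y axis, linear) against distance from the centromere-side end of arms 2L, 3L and 3R in Mbp (x axis, first 10 Mbp), coloured by the number of mitotic lists that overlap the site; the dashed line is the edge of the window. The innermost retained site lies at 1.57 Mbp on 2L, 2.89 Mbp on 3L and 0.618 Mbp on 3R, so that sites farther in are by definition in no mitotic list.

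The sites retained in several lists were few and not always strong in control cells. The site chr2L:20119879-20121842 was in all 3 mitotic lists, with a control score of 2951 and mitotic scores of 933 in PSC replicate 1, 264 in PSC replicate 2 and 202 in PH. Its mitotic score was the highest among the 395 sites in each of the 3 lists. The other site in all 3 lists, chr2L:21396527-21398093, had a control score of only 763, which ranks 2114 of 4830, but mitotic scores of 308, 151 and 113. It was also the retained site closest to the end of 2L.

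On 3L and 3R another 5 sites were shared by PSC mitotic replicate 1 and PH. The site chr3L:20294597-20296239 scored 1515 in control cells, 426 in PSC mitotic replicate 1 and 185 in the PH mitotic list. The site chr3L:21016335-21021806 scored 3100 in control cells but only 66.2 and 62.1 in the mitotic lists. Within it the PSC mitotic peak ran from 21020012 to 21021616 and the PH mitotic peak from 21018429 to 21020164, so that they met over part of their length inside a control peak of 5472 bp. On 3R a pair of neighbours was retained, chr3R:1473341-1475507 and chr3R:1484232-1486964, with control scores of 2525 and 3190. Their scores were 565 and 220 in PSC mitotic replicate 1, and 148 and 64.2 in PH. The last was chr3R:3732465-3734025, with 1467 in control cells, 193 in PSC mitotic replicate 1 and 81.8 in PH.

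Many strong sites were lost in the same windows, although the strongest site was a retained one on 3L and 3R. On 2L the highest lost sites were chr2L:20821283-20824765 with a score of 3142, and chr2L:21681109-21685946 and chr2L:22469431-22473042 with 3100 each. On 3R they were chr3R:2230889-2234040 (3155), chr3R:1832575-1836177 (2949) and chr3R:730980-732992 (2859). On 3L the last site of the arm was followed by chr3L:20509226-20514716 (2524) and chr3L:23329901-23333280 (2438). PH control peaks overlapped each of these 9 sites, and PSC control replicate 2 missed 2 of them, chr2L:22469431-22473042 and chr3L:23329901-23333280. Of the 38 sites in the top decile, 29 were lost.

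Retained and lost sites near the centromeres differed in control cells much as they did elsewhere. The 27 retained sites had control scores of 688 to 3190 with a median of 1725, and the 368 lost sites 162 to 3155 with a median of 679, so that the ranges overlapped widely. Elsewhere the medians were 1862 and 619. From the lowest retained score upward, 27 of 207 sites (13.0%) near the centromeres were retained, against 327 of 1362 (24.0%) over the rest of the arms. PH control peaks overlapped 27 of 27 retained and 337 of 368 lost sites (91.6%), and PSC control replicate 2 overlapped 26 of 27 and 247 of 368 (67.1%). The nearest lost site lay at a median of 7.49 kb from a retained one (1.57 to 96.9 kb), and had the higher control score in 3 of 27 cases.

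The mitotic peaks at retained sites were narrower than the control peaks and had lower scores, as had the peaks of PSC control replicate 2. In PSC mitotic replicate 1 they had a median length of 64.6% of the control peak near the centromeres and 62.9% elsewhere, and 24 of 27 lay wholly inside the control peak (88.9%, against 95.7%). The median mitotic score of the retained sites was 94.9 near the centromeres and 117 elsewhere, both not far above the lowest score of 50 in that list. In PSC control replicate 2 the peaks at shared sites near the centromeres had a median length of 71.9% of the replicate 1 peak, 92.7% lay inside it and their median score was 104, so that a like narrowing was seen between control lists of unknown depth. Over the 27 retained sites the Spearman rho between control and mitotic scores was 0.01, against 0.33 over the 346 elsewhere. Both values describe sites that share their libraries and carry no interval, so a difference between them was not resolved.

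In the ANT-C window the retained sites were in PSC mitotic replicate 1 and in no other mitotic list. They were chr3R:2584778-2586145, chr3R:2892176-2893796, chr3R:2899458-2902575, chr3R:2910874-2913302 and chr3R:2948246-2951045. Their control scores were 1378, 1231, 2545, 1725 and 2039, and their mitotic scores 99.9, 94.9, 60.7, 117 and 73.3, in that order. The last 4 lay between 2892176 and 2951045, and the site without PH described above lay among them. PH scores in control cells were 1326, 1571, 2903, 2001 and 2727, so that each held both proteins in control cells.

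Mitotic peaks away from control sites were rare. Of the 29 peaks of PSC mitotic replicate 1 near the centromeres, 27 overlapped a peak of PSC control replicate 1, as did both of PSC mitotic replicate 2 and 7 of 7 of PH. The other 2 were chr3R:975517-976462, with a score of 115 and 22.8 kb from the nearest control site, and chr3R:2241942-2242703, with a score of 86.4 and 6.55 kb away. Neither overlapped a peak of PSC control replicate 2 or of the PH control list.

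The windows were set by position, and the sites next to their edges are given here. The sites just inside were chr2L:20023846-20025215 with a score of 253, chr3L:20021509-20022736 with 211 and chr3R:3951400-3954250 with 1462. The peaks just outside were chr2L:19914635-19916092 with 524, chr3L:19998875-20000286 with 283 and chr3R:4006475-4008321 with 1334. None of these 6 was in a mitotic list, against 11.8% of all control peaks, and 6 sites are too few to show a difference.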

How the data were processed

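Peak lists from ChIP–SEQ of PSC and biotin-tagged PH were used for 6 samples; inputs were not used here. Reads of 36 bp had been aligned by the authors with Bowtie 1.1.2 (build dm3), and only unique alignments were kept. They called peaks per sample with MACS, listed as 1.0.1 in the submitters' processing notes, at a p-value cutoff of 1e-05 with a fragment size of 36, a bandwidth of 200 and a genome size of 120000000. The authors state a false discovery rate filter of 5% for every sample but mitotic PH, and U and Uextra were dropped. The deposited lists give positions, printed here 1-based, and a score per peak, which was not normalized between samples by the authors. Scores were read as −10 log10(p), since PSC control replicate 2 and PSC mitotic replicate 1 begin at 50.0 and the PH mitotic list at 50.2. The other lists begin higher, PSC mitotic replicate 2 at 72.8, PSC control replicate 1 at 161 and the PH control at 166. The lists thus do not share a minimum score. In PSC mitotic replicate 1 the peak numbers ran without a gap, with 29 of 29 in the windows and 353 of 353 elsewhere. The same held for PSC control replicate 2, with 284 of 284 and 2010 of 2010. They thus show no peak removed from these 2 lists on the 3 arms, unlike in PSC control replicate 1. The lists hold no read numbers, so depth is unknown.

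Overlaps of at least 1 bp were counted with Python 3.11.15, pandas 2.3.3, numpy 2.4.6 and scipy 1.17.1, and matched bedtools 2.31.1 in 30 of 30 pairs of lists. Shares carry exact binomial (Clopper-Pearson) intervals, densities exact Poisson intervals and medians order-statistic intervals, all at 95%. A count of 0 allows a share of 3 counts of the total. Window widths run to the outermost peak edge of any list on the arm. The exact permutation test compared 3 control with 3 mitotic lists. Named sites were those in 2 or more mitotic lists, the 3 highest retained and 3 highest lost sites of each window, those at the window edges and arm ends, the 3 longest, the 3 highest without PH, retained sites of the ANT-C window and mitotic peaks without a control site. The sites and windows were chosen with earlier results of these data known. Alternatives were other thresholds, overlaps, windows and base lists, each arm or list left out, and a replicate block. Same-numbered PSC replicates share only a number in the labels. No genome or annotation of dm3 was used here, so genes and sequences at the sites are not given.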

Additional observations from a re-analysis of the deposited data

How the results depend on the processing

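The share of sites near the centromeres in PSC mitotic replicate 1 was below that over the rest of the arms in 13 of 13 alternatives, by −7.86 to −3.28 percentage points (−6.10 as reported). The PH mitotic list was below in 13 of 13 (−2.01 to −0.092) and PSC mitotic replicate 2 in 12 of 13, with 0.0288 where mitotic peaks had to reach the lowest score of PSC control replicate 1. These 2 differences stayed unresolved. The interval near the centromeres reached the share of the other sites in each alternative for PSC mitotic replicate 2. For PH it did so in all but the windows 1 Mbp wider. The alternatives draw on the same lists and are not independent. The share retained in PSC mitotic replicate 1 was 3.04% at a score of at least 100. It was 1.77% with mitotic peaks at or above the lowest score of PSC control replicate 1. In the upper 50% of each list by score, PH control overlap was 88.0%, the median score 1208, the median length 2132 bp and the density 18.9 per Mbp. The density was 38.8 per Mbp with 3L left out and 29.2 with 3R left out, and median length was 1880 bp with the PH control as base list. Without PSC control replicate 1, with replicate 2 in its place, the values were 9.15% retained, 96.5% PH control overlap, a median score of 99.0, a median length of 1192 bp and 24.7 per Mbp. The cause of these shifts was not tested.

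The difference in share between control and mitotic lists ran from −8.26 to −4.03 percentage points over its alternatives, and from −6.31 to −5.37 with 1 list left out. With the replicate block, pairing lists of the same protein and number, it was −5.92 with p = 0.25 in the exact permutation test, the smallest that 3 pairs allow. With the PSC lists alone it was −5.97 with p = 0.333 in the exact permutation test. Lists held to equal numbers, the division at 22 Mbp and the deciles of other base lists were chosen after seeing the data. The lists give no depth, so a lost site may lie just below a threshold.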

Other observations

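Heterochromatic sequences that the assembly assigns to the same arms but does not place on them held few PSC peaks, and these were not among the sites described above. PSC control replicate 1 had 2 peaks on 2LHet, 10 on 3LHet and 6 on 3RHet, with median scores of 1809, 1146 and 917. PH control peaks overlapped 2 of 2, 10 of 10 and 6 of 6 of them. In PSC mitotic replicate 1, 1 of the 10 on 3LHet was overlapped, by a peak with a score of 50.8, and 0 on 2LHet and 3RHet. That list also had 2 peaks on 3RHet, with a median score of 161, which overlapped no peak of PSC control replicate 1, and PSC mitotic replicate 2 had 1 there with a score of 111. The PH mitotic list had no peak on these sequences.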
